A study of Homo sapiens with 4 samples.

Results

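The small nucleolar RNA host genes described here are 33 of the 63241 genes in the table: every gene whose symbol is SNHG followed by digits alone, plus GAS5, ZFAS1, DANCR, EPB41L4A-AS1 and CYTOR. The rule uses names alone and no measured value. 22Rv1 cells, an established human prostate carcinoma line grown from a xenograft that relapsed after castration, were treated for 12 h with 40 nM JMC45, a small molecule directed at the transcription kinase CDK9 and described in the series title as its degrader, or with the vehicle DMSO alone. Each group has 2 libraries of poly(A)-selected RNA from the same line, and the labels do not say whether these came from separate cultures, so the p-values measure only the spread between libraries, which may be technical. Levels are TPM, a unit of relative abundance scaled to gene length and to the library total. The depth of the libraries is unknown.

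Small nucleolar RNAs (snoRNAs) guide chemical modification of ribosomal RNA and, as scaRNAs, of spliceosomal RNA. In human cells most are cut from introns of longer host transcripts, and box C/D snoRNAs guide ribose methylation while box H/ACA snoRNAs guide pseudouridylation. Many hosts code for ribosomal proteins or translation factors. The SNHG hosts are mostly noncoding: the spliced exons of several of them engage ribosomes at short reading frames and are turned over by nonsense-mediated decay, and several start with an oligopyrimidine tract like that of ribosomal protein mRNAs.

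The host genes split by abundance. On TPM, 9 of the 28 host genes with a mean of at least 1 TPM rose in JMC45, 15 fell and 4 did not pass the test, while the remaining 5 were too low to test. The 8 most abundant hosts all rose, led in level by SNHG8, SNHG29 and GAS5. Among all 14018 genes tested, 4.25% were called higher and 80.7% lower, so rises were a larger share and falls a smaller share of the hosts than of the table as a whole. Both JMC45 values lay above both vehicle values in 6.28% of all genes and below them in 85.7%. Among the 28 tested hosts they lay above in the 9 that rose. They lay below in the 15 that fell and also in DANCR and SNHG10, which were not called. Genes that pass the test are almost bound to separate in this way, so the shares of all genes compare only with all tested hosts. These calls come from limma on log2(TPM + 1) with Benjamini-Hochberg adjustment over all tested genes and a threshold of 0.05, and they compare the share of the library that a transcript takes up. Fewer cells and less RNA per cell cannot be told apart in such values, and no spike-in was analysed here. Mitochondrially encoded genes held 26.6% and 29.3% of all TPM in JMC45, against 20.4% and 20.1% in vehicle, and cytosolic ribosomal protein genes held 30.2% and 28.6% in JMC45, against 18.7% and 20.4% in vehicle. Their part in the host gene changes was not tested, but the calls under other scalings are given beside the results.

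The transcript starts of the hosts carry a feature that differed between the groups of genes, and the first 30 bases of a transcript are therefore shown for 7 hosts that rose. They come from GENCODE release 29, 5′ to 3′ on the gene's own strand, with the opening run of C and T in capitals. Only transcripts that start with C were considered. Where several do, one that starts with CTTT is shown if there is any, and otherwise the one with the longest opening run of C and T. All 7 shown start with CTTT. SNHG32 also rose, but its chosen transcript starts with CTC and is not shown. The 7 therefore do not stand for all hosts that rose.
GAS5: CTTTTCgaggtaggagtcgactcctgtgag
SNHG29: CTTTTCattcccgttgttatggagggccac
SNHG8: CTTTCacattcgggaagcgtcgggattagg
SNHG5: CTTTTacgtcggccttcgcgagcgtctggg
SNHG19: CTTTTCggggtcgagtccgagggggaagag
ZFAS1: CTTTCgcgtctgcggtgcccggagtgtggt
SNHG25: CTTTCagcgcctgcaggttccgggagctcc

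The same stretch is shown for 6 hosts that fell. SNHG16 and SNHG4 also have transcripts that begin with CTTT. In the transcripts chosen for their opening run, the tract starts with a pair of C bases in SNHG12 and SNHG3 and with CTC in SNHG7 and SNHG1. SNHG30, SNHG20, SNHG21 and SNHG26 also fell but have no annotated transcript that starts with C. The 6 shown therefore do not stand for all hosts that fell.
SNHG16: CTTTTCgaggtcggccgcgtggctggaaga
SNHG4: CTTTCCCCTCCggcctctgccggtgctgct
SNHG12: CCTTTCTCCCCgccgcattcccggtgtcga
SNHG3: CCTTTTTggagacagattcgcagtggtcgc
SNHG7: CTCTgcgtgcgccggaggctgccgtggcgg
SNHG1: CTCCTgtctgcaggatttacgcgcacgttg

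The letters CTTT at the first base of at least 1 annotated transcript were found in 8 of the 9 hosts that rose, in 2 of the 15 that fell and in 0 of the 4 that did not pass. Across all tested genes with an annotation, 698 of 13461 had such a transcript, or 5.19%, and among other tested long noncoding RNA genes the share was 2.41%. Among all tested genes called higher it was 52 of 571, or 9.11%, and among those called lower it was 5.09%. Counted by transcript, 23 of 116 transcripts of the hosts that rose started this way, against 4 of 157 of the hosts that fell and 871 of 117184 of all tested genes. The hosts that rose had a median of 10 annotated transcripts and those that fell had 8, against 7 over all tested genes. SNHG32 was the host that rose without such a transcript. The contrast depends on the exact letters. In the transcripts chosen, the opening run of C and T was 5 to 7 bases in the hosts that rose, except SNHG32 at 3. Among the hosts that fell it was 11 in SNHG12 and SNHG4, 7 in SNHG3, 6 in SNHG16 and SNHG11, and 5 in SNHG1. The other hosts that fell had shorter runs or no transcript that starts with C. No share over all tested genes is given for such runs. The motif was chosen after the values were seen, it was searched on the gene's own strand only, and a match describes the letters and not a functional site.

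The promoters were read from RefSeq on GRCh38.p14, where 29 of the 33 hosts had an entry and SNHG6, SNHG9, SNHG15 and SNHG25 did not. The windows below run from 60 bases before the annotated start to 20 bases from it onward, 5′ to 3′ on the gene's own strand. Capitals mark TATAA within the 50 bases before the start and CTTT within 5 bases of it. The first 5 belong to hosts that rose and the last 2 to hosts that fell.
SNHG5 (chr6:85678714-85678793, minus strand): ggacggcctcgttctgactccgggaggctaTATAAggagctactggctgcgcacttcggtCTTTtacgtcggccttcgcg
ZFAS1 (chr20:49278582-49278661, plus strand): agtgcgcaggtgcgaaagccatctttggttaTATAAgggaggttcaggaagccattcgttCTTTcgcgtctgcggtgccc
SNHG19 (chr16:2155339-2155418, minus strand): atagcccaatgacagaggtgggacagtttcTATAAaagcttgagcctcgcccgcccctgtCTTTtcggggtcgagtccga
SNHG8 (chr4:118278702-118278781, plus strand): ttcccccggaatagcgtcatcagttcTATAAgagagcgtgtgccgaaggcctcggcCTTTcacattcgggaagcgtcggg
SNHG32 (chr6:31834856-31834935, plus strand): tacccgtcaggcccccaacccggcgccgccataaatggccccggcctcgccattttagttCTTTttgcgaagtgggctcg
SNHG12 (chr1:28581854-28581933, minus strand): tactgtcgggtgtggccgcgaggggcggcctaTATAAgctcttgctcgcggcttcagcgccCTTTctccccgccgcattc
SNHG7 (chr9:136728165-136728244, minus strand): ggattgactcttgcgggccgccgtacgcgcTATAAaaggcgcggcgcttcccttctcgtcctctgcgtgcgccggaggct

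TATAA stood in that stretch in 4 of 7 promoters of hosts that rose and in 2 of 14 of hosts that fell, compared with 1397 of all 27305 promoters in the RefSeq table, or 5.12%, and 2.67% of the promoters of tested genes. CTTT near the start was found in 5 of the 7 and 3 of the 14, compared with 6.26% of all promoters and 6.55% of those of tested genes. Among 340 promoters of genes called higher, 7.06% held TATAA and 19.4% held CTTT in these places. SNHG32, which lacked a CTTT start in GENCODE, has one in its RefSeq window. The RefSeq windows of GAS5 and SNHG29 hold no TATAA in the 50 bases before the start and no CTTT within 5 bases of it. These windows do not contain the CTTT starts shown above for GAS5 and SNHG29, so they lie at other annotated starts. Both genes are among the 7. SNHG12 holds both motifs in its RefSeq window and SNHG7 holds TATAA, and both fell. These counts, like the motifs, were chosen with the values known and carry no test.

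The 8 most abundant hosts carry box C/D snoRNAs, except SNHG8. GAS5 (ENSG00000234741, chromosome 1), the growth arrest transcript that carries several box C/D snoRNAs in its introns, measured 1270.69 and 1215.43 TPM in the JMC45 libraries, against 622.16 and 708.33 TPM in the vehicle libraries. Both JMC45 values lay far above both vehicle values, and the log2 change was 0.90 (SE 0.0781, limma adjusted p = 9.2e-05). Against all genes, its rank by TPM was 119 in JMC45 and 180 in vehicle.

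SNHG29 (ENSG00000175061, chromosome 17), host of SNORD49A, SNORD49B and SNORD65, measured 1239.24 and 1251.91 TPM in JMC45, against 775.22 and 696.93 TPM in vehicle. The groups did not overlap, and the log2 change was 0.76 (SE 0.0693, limma adjusted p = 0.000114). SNHG8 (ENSG00000269893, chromosome 4) hosts the box H/ACA snoRNA SNORA24 and was the most abundant host by mean TPM. It stood at 1344.71 and 1231.81 TPM in JMC45, against 715.72 and 826.68 TPM in vehicle. Here too the groups did not overlap, and the log2 change was 0.74 (SE 0.0885, limma adjusted p = 0.000361).

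SNHG5 (ENSG00000203875, chromosome 6), host of SNORD50B, had 774.91 and 770.57 TPM in JMC45, against 511.70 and 581.04 TPM in vehicle. Its change was the smallest of the 9 rises, at 0.50 on the log2 scale (SE 0.0748, limma adjusted p = 0.000989). SNHG6 (ENSG00000245910, chromosome 8), host of SNORD87, had 500.04 and 496.46 TPM in JMC45, against 325.65 and 341.01 TPM in vehicle (log2 change 0.58, limma adjusted p = 0.000146). The JMC45 libraries of both genes were nearly equal, and every one of them lay above the vehicle libraries.

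SNHG32 (ENSG00000204387, chromosome 6), annotated as protein coding under the older symbol C6orf48 and host of SNORD48 and SNORD52, had 331.32 and 330.00 TPM in JMC45, against 202.26 and 208.87 TPM in vehicle. The groups stood apart with little spread within either, and the change was 0.68 on the log2 scale (limma adjusted p = 7.0e-05, SE 0.0552). SNHG19 (ENSG00000260260, chromosome 16), a short host of SNORD60, had 341.36 and 320.42 TPM in JMC45, against 155.37 and 180.41 TPM in vehicle. Its mean TPM was 1.97-fold higher, the change was 0.98 on the log2 scale (limma adjusted p = 0.000102, SE 0.0868), and the rank of the gene was 278 in JMC45 and 707 in vehicle.

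ZFAS1 (ENSG00000177410, chromosome 20), which lies head to head with ZNFX1 and hosts SNORD12, SNORD12B and SNORD12C, had 244.24 and 216.61 TPM in JMC45, against 124.82 and 128.95 TPM in vehicle. The groups did not overlap, and the log2 change was 0.85 (SE 0.0759, limma adjusted p = 0.000104). ZNFX1 itself, whose exons overlap those of ZFAS1 on the other strand, had 0.53 and 0.68 TPM in JMC45, against 4.40 and 4.34 TPM in vehicle (log2 change -1.74).

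SNHG25 (ENSG00000266402, chromosome 17), a host of SNORD104 and SNORA50C, was the only host that rose from a low level. It had 14.39 and 4.15 TPM in JMC45, against 2.76 and 2.65 TPM in vehicle, so the JMC45 libraries disagreed with each other by more than the lower of them differed from vehicle. Its log2 change of 1.26 (SE 0.48, limma adjusted p = 0.0461) was the largest of the 9 rises and the least secure. Without JMC45 replicate 1 the log2 change was 0.48 (adjusted p = 0.0746), and the call was also lost without vehicle replicate 1 (1.29, adjusted p = 0.207) and without vehicle replicate 2 (1.24, adjusted p = 0.218).

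**Figure D1:**
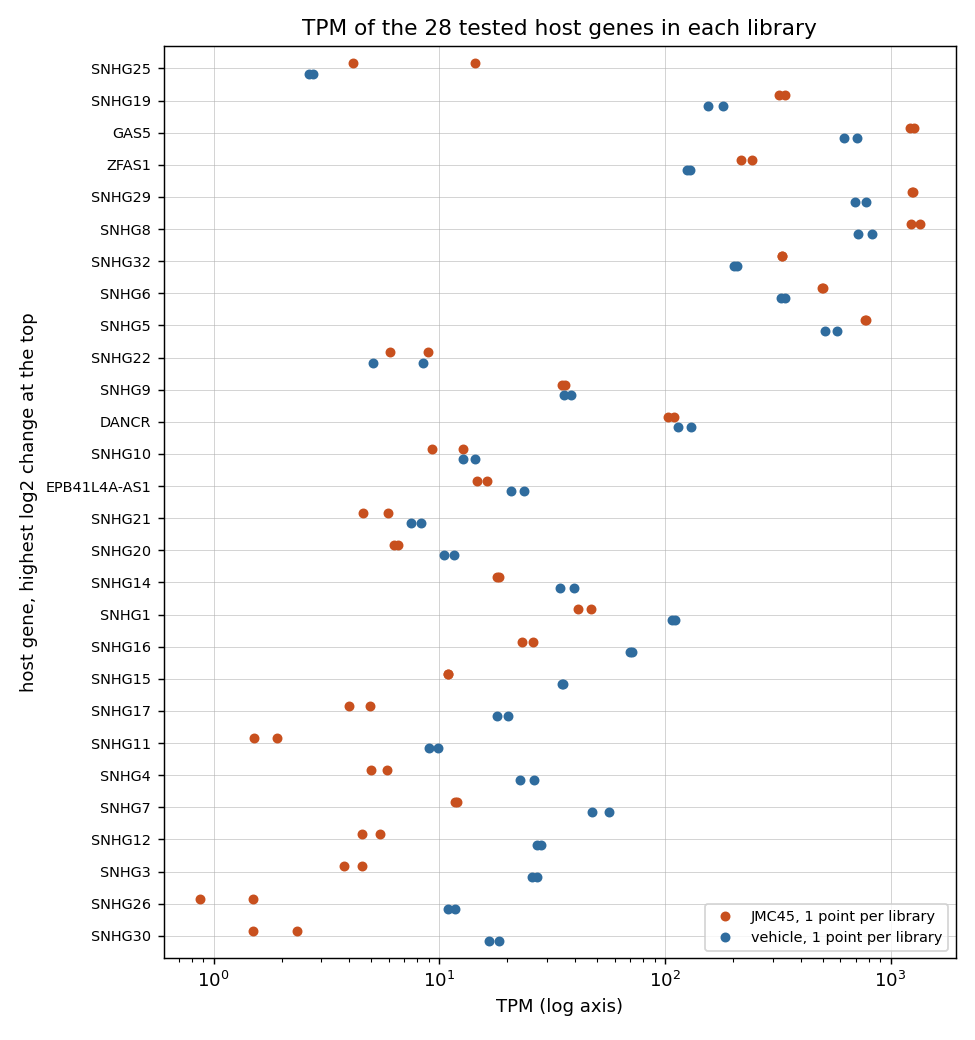
TPM on a log axis for the 28 tested host genes, with 1 point per library, JMC45 in orange above vehicle in blue for each gene; genes run from the highest log2 change at the top. The 8 most abundant hosts have both JMC45 points to the right of both vehicle points, the JMC45 points of SNHG25 at 14.39 and 4.15 TPM are far apart, and the lower rows have both JMC45 points to the left.

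The 4 hosts that did not pass the test lay between these groups. DANCR (ENSG00000226950, chromosome 4), host of the box H/ACA snoRNA SNORA26 and the ninth host by mean TPM, had 109.75 and 103.18 TPM in JMC45, against 114.17 and 130.99 TPM in vehicle. The groups did not overlap, but the log2 change of -0.20 had a 95% interval of -0.41 to 0.01 (limma adjusted p = 0.0688), and without vehicle replicate 1 it was -0.30 and passed (adjusted p = 0.0300). SNHG9, host of SNORA78, had nearly the same TPM in all libraries, with a log2 change of -0.05 and an interval of -0.24 to 0.14. SNHG10, host of SCARNA13, had a value of -0.30 (interval -0.69 to 0.10), which passed as a fall without JMC45 replicate 2 (-0.51, adjusted p = 0.0309). The groups of SNHG22, host of SCARNA17, overlapped, and the interval of its change ran from -0.50 to 0.78.

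Among the 15 hosts that fell, SNHG1 (ENSG00000255717, chromosome 11) was the most abundant. It carries a run of box C/D snoRNAs, among them SNORD22 and SNORD25 to SNORD28, and had 47.11 and 41.40 TPM in JMC45, against 107.59 and 111.28 TPM in vehicle. The groups stood well apart, at -1.29 on the log2 scale (SE 0.0826, limma adjusted p = 3.1e-05), close to the median of -1.10 over all tested genes. By rank it was at 1574 in JMC45 and 1125 in vehicle, the only one of the 10 most abundant hosts whose rank was poorer in JMC45.

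SNHG30 (ENSG00000267321, chromosome 17), host of SNORD7, fell furthest on the log2 scale. It had 1.49 and 2.33 TPM in JMC45, against 18.35 and 16.64 TPM in vehicle (log2 change -2.68, SE 0.171, limma adjusted p = 3.0e-05). SNHG26 (ENSG00000228649, chromosome 7), host of SNORD93, had 1.49 and 0.87 TPM in JMC45, against 11.78 and 10.96 TPM in vehicle (log2 change -2.52, SE 0.175). For both the vehicle libraries agreed closely and the mean TPM was 9.16-fold lower in JMC45 for SNHG30 and 9.64-fold lower for SNHG26, which the log2(TPM + 1) scale understates.

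SNHG3 (ENSG00000242125, chromosome 1) hosts SNORA73A and SNORA73B, the U17 snoRNAs that act in processing of 18S ribosomal RNA. It had 4.56 and 3.79 TPM in JMC45, against 27.02 and 25.72 TPM in vehicle (log2 change -2.41, SE 0.116, limma adjusted p = 1.46e-05). SNHG12 (ENSG00000197989, chromosome 1), whose introns hold box H/ACA and box C/D snoRNAs, had 5.46 and 4.53 TPM in JMC45, against 28.13 and 27.06 TPM in vehicle (log2 change -2.26). These genes are near neighbours, with RCC1 and TRNAU1AP between them, and their TPM was close in every library.

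SNHG7 (ENSG00000233016, chromosome 9), host of the SNORA17 snoRNAs, had 11.74 and 12.03 TPM in JMC45, against 47.44 and 56.28 TPM in vehicle (log2 change -2.03). SNHG4 (ENSG00000281398, chromosome 5), host of SNORA74A, had 5.85 and 4.97 TPM in JMC45, against 26.42 and 22.71 TPM in vehicle, and fell by 2.00 on the log2 scale. In both, all JMC45 values were far below all vehicle values. The other 8 hosts that fell, SNHG11, SNHG17, SNHG15, SNHG16, SNHG14, SNHG20, SNHG21 and EPB41L4A-AS1, had log2 changes between -1.95 and -0.50 without overlap of the groups. SNHG21, at 5.91 and 4.60 TPM in JMC45 against 7.52 and 8.34 TPM in vehicle, lost its call without JMC45 replicate 2 (-0.37), without vehicle replicate 1 (-0.59) or without vehicle replicate 2 (-0.45).

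The 5 hosts below a mean of 1 TPM were SNHG28, CYTOR, SNHG27, SNHG31 and SNHG18. None reached 1 TPM in any library. CYTOR was listed at 0 and 0.01 TPM in JMC45, against 0.46 and 0.96 TPM in vehicle, and SNHG18 was listed at 0 in all 4 libraries. SNHG28 had 0.26 and 0.15 TPM in JMC45, against 0.65 and 0.97 TPM in vehicle. In a fit of all 31100 genes above 0 in any library, with no filter on low values, 44.6% of genes were called lower and 2.45% higher. There CYTOR (log2 change -0.75, limma adjusted p = 0.0257) and SNHG28 (-0.58, adjusted p = 0.0300) were called lower, while SNHG27 (-0.36, adjusted p = 0.0592) and SNHG31 (-0.04, adjusted p = 0.368) were not called. SNHG18 could not be fitted.

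**Figure D2:**
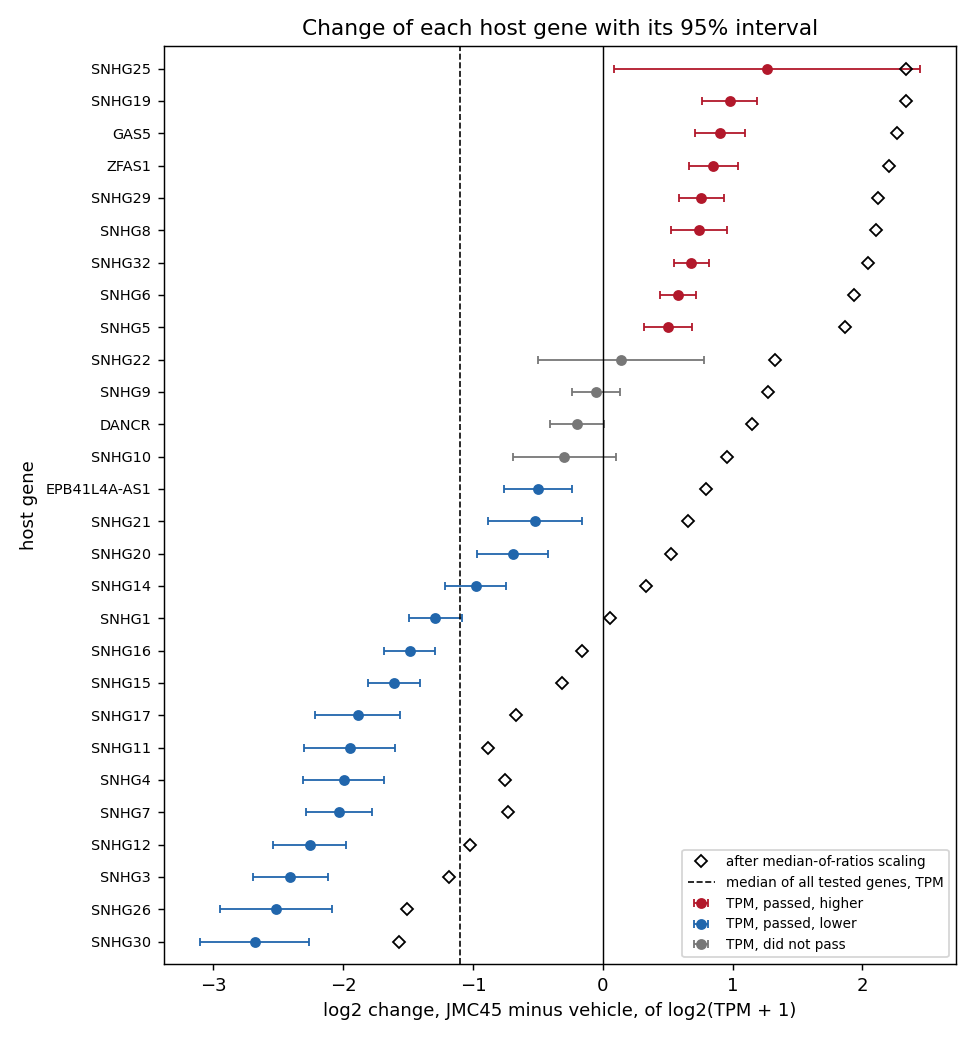
Log2 change of JMC45 minus vehicle for each tested host gene, with the 95% interval from limma as bars; filled points are TPM values coloured by the test, open diamonds are the changes after median-of-ratios scaling, and the dashed line is the median of all tested genes. On TPM, 9 hosts lie above 0 and pass, 15 lie below 0 and pass, and the median-of-ratios values are shifted to the right throughout.

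The size of these calls depends on how libraries are made comparable, since the median change over all tested genes was -1.10 on the log2 scale. Relative to that median, the 9 hosts that rose stood 1.60 to 2.37 higher, and the 15 that fell ranged between -1.58 and 0.60. Median-of-ratios scaling, which sets the median gene near 0 (-0.01), called 17 hosts higher and 9 lower, beside 35.5% and 35.3% of all genes. All 9 hosts that rose on TPM were called higher there, with log2 changes of 1.86 to 2.34. Of the 15 that fell on TPM, 9 were still called lower, SNHG14, SNHG20, SNHG21 and EPB41L4A-AS1 were called higher, and SNHG1 and SNHG16 were not called. The 4 hosts without a call on TPM were all called higher.

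Setting the total TPM of the mitochondrially encoded genes equal between libraries moved the values the other way. At an equal mitochondrial total, 4 of the 9 rises kept their call, those of GAS5 (0.44), SNHG19 (0.52), ZFAS1 (0.39) and SNHG29 (0.30), beside 1.29% of all genes called higher and 90.5% called lower. The other 5 remained above 0 without passing, with values of 0.28 for SNHG8, 0.22 for SNHG32, 0.12 for SNHG6, 0.04 for SNHG5 and 0.90 for SNHG25. All 15 falls kept their call, and DANCR, SNHG9 and SNHG10 joined them. Quantile normalization called 16 hosts higher and 11 lower, beside 33.6% and 32.8% of all genes. The hosts called alike on TPM, under both of these normalizations and at an equal mitochondrial total were GAS5, SNHG19, ZFAS1 and SNHG29, all higher, and 9 that were lower, led by SNHG30, SNHG26 and SNHG3.

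Level and direction went together. Of the 9 hosts with a mean of at least 100 TPM, 8 rose and 0 fell, beside 24.0% higher and 53.3% lower among all 997 genes at that level. Of the 19 tested hosts below 100 TPM, 1 rose and 15 fell, beside 2.74% higher and 82.8% lower among 13021 genes, so the shares of the less abundant hosts were near those of all genes at their level. Among 1368 other long noncoding RNA genes, 5.41% rose and 73.0% fell. Of the 8 with a mean of at least 100 TPM, 6 rose (75.0%) and 1 fell (12.5%). The median log2 change of those 8 was 2.29, so some of them may pass 100 TPM through their JMC45 values alone. The division at 100 TPM was chosen after the values were seen. It uses the mean over all 4 libraries, so a rise can lift a gene above it and a fall can bring one below. SNHG1, which fell, had 107.59 and 111.28 TPM in vehicle and stood below 100 TPM only through its JMC45 values. The shares above and below 100 TPM therefore depend in part on the direction of change itself. By vehicle mean, the 8 hosts that rose at this level still ranked above all other hosts.

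**Figure D3:**
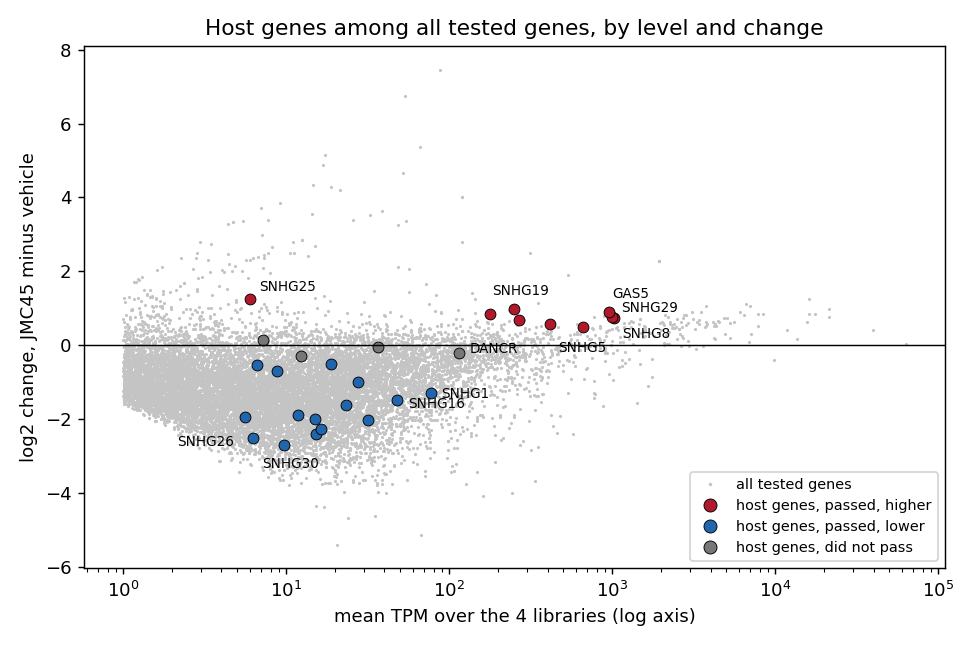
Mean TPM over the 4 libraries on a log axis against the log2 change of JMC45 minus vehicle, for all 14018 tested genes as grey dots and for the host genes as large points coloured by the test. Hosts above 100 TPM lie above 0 except DANCR at -0.20, and most hosts below that level lie within the cloud of genes below 0.

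As a sum, the 33 hosts took up more of the library in JMC45. Their summed TPM was 6390.41 and 6151.64 in JMC45, against 4092.51 and 4345.02 in vehicle, or 0.627% ± 0.0169 of all TPM in JMC45 and 0.422% ± 0.0179 in vehicle (SD, n = 2 each). The ratio of means was 1.49, and p was 0.33 by a two-sided exact permutation test, the lowest that 2 against 2 libraries allow. The sum was carried by few genes: GAS5, SNHG8 and SNHG29 held 60.3% and 60.1% of it in JMC45, against 51.6% and 51.4% in vehicle. The 9 hosts that rose summed to 5949 ± 158 TPM in JMC45 and 3555 ± 169 TPM in vehicle, while the 15 that fell summed to 160.9 ± 9.83 TPM in JMC45 and 481.4 ± 0.205 TPM in vehicle. At an equal mitochondrial total the ratio of the sums was 1.08, and after median-of-ratios scaling it was 3.81.

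**Figure D4:**
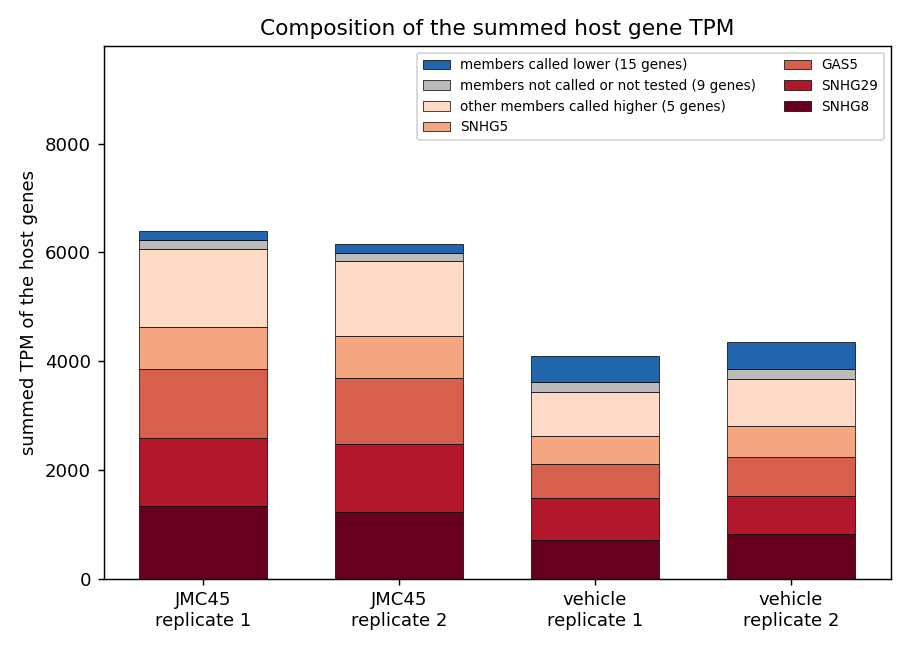
Summed TPM of the 33 host genes in each library as stacked bars that start at 0, divided into the 4 most abundant hosts, the other 5 that were called higher, the 9 that were not called or not tested, and the 15 called lower. The JMC45 bars reach 6390.41 and 6151.64 TPM and the vehicle bars 4092.51 and 4345.02 TPM, and the segment of hosts called lower is thinner in JMC45.

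The kind of small RNA that a host carries was read from GENCODE release 29, counting small RNA genes that lie inside the host on the same strand. There were 144 of them in 30 hosts, of which 84 lie in SNHG14, the long imprinted transcript that runs antisense to UBE3A. Of 11 tested hosts of box C/D snoRNAs alone, 6 rose and 5 fell, with a median log2 change of 0.50, beside 4.25% higher, 80.7% lower and a median of -1.10 over all tested genes. Of 10 hosts of box H/ACA snoRNAs alone, 1 rose, 7 fell and 2 did not pass, with a median of -1.75, and of 4 hosts of scaRNAs 2 fell and 2 did not pass, with a median of -0.41. The share of H/ACA hosts that fell was near that of all genes. SNHG25 and SNHG12 host both kinds, and the first rose while the second fell. GAS5 had no small RNA gene inside it in this annotation, although it is known as a box C/D host. These classes overlap with abundance, since SNHG8 and DANCR were the only H/ACA hosts above 100 TPM, and the difference between classes was not tested.

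The hosted small RNAs themselves were hardly captured. Mature snoRNAs have no poly(A) tail, and 139 of the 144 were listed at 0 in all libraries. In SNHG3, SNORA73A was at 4.43 and 11.81 TPM in JMC45, against 0.80 and 1.41 TPM in vehicle (log2 change 2.00, limma adjusted p = 0.00391), and the call was lost without vehicle replicate 1 (1.79, adjusted p = 0.0664). Its neighbour SNORA73B was listed at 0 in both JMC45 libraries, against 3.02 and 6.07 TPM in vehicle (limma adjusted p = 0.000303), so the pair in SNHG3 went opposite ways. SNORA71B, in SNHG17, had 2.75 and 2.44 TPM in JMC45, against 6.50 and 9.07 TPM in vehicle (log2 change -1.27). Its call was lost after median-of-ratios scaling (-0.17, limma adjusted p = 0.435), and by quantile normalization its change was 0.07 (adjusted p = 0.764). SCARNA16, in SNHG20, was above 0 in 1 JMC45 library only, at 9.46 TPM, and SCARNA13, in SNHG10, stayed below 1 TPM throughout. SNORA73A and SCARNA16 overlap exons of their hosts, so reads of the host and of the small RNA cannot be told apart there.

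Several hosts share exonic sequence with other genes, and their values are uncertain to that extent. On the same strand, SNHG3 overlaps RCC1, which had 20.39 and 17.84 TPM in JMC45 against 83.10 TPM in both vehicle libraries (log2 change -2.07), SNHG4 overlaps MATR3 (-1.60), SNHG20 overlaps SEC14L1 (-1.42) and SNHG14 overlaps SNRPN (-0.09, not called). On the opposite strand, SNHG12 overlaps TRNAU1AP (-1.81), SNHG7 overlaps DIPK1B (-2.04), and SNHG6 overlaps MCMDC2 (-1.29). SNHG14 also overlaps UBE3A (-1.90) and SNHG4 also overlaps SIL1 (-1.78) on that strand. GLRX5, opposite SNHG10, had 62.38 and 57.95 TPM in JMC45 against 97.27 and 93.20 TPM in vehicle, above SNHG10 in every library. GAS5 overlaps GAS5-AS1, which had 1.48 and 1.32 TPM in JMC45 against 2.46 and 2.75 TPM in vehicle. The library kit marks strand, but the sources used here do not give whether the counting used strand. The partners of the abundant hosts ZFAS1, SNHG6 and GAS5 were all under 5 TPM and were lower in JMC45, while those hosts rose.

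Protein-coding snoRNA hosts gave a comparison by function. Of 32 hosts that encode ribosomal proteins or translation factors, 23 rose, 5 fell and 4 did not pass, with a median log2 change of 0.53, beside 4.25% higher and 80.7% lower over all tested genes. Among their largest rises were RPS12 (5299.32 and 4827.69 TPM in JMC45, 2238.90 and 2644.14 TPM in vehicle, log2 change 1.06), RPL12 (0.89) and RPLP2 (0.82), all ribosomal proteins. The initiation factors EIF4A1 (-1.30), EIF4G1 (-1.19), EIF4A2 (-0.82) and EIF4G2 (-0.76) fell with RACK1. Median-of-ratios scaling called 30 of the 32 higher and 0 lower, quantile normalization called 8 higher and 9 lower, and an equal mitochondrial total gave 2 higher and 9 lower. Over all genes the shares higher and lower were 35.5% and 35.3%, 33.6% and 32.8%, and 1.29% and 90.5% under the same 3 settings, so the 8 and 9 of quantile normalization were near the shares of all genes. Ribosomal protein genes have many processed pseudogenes, so their TPM is uncertain where reads are shared. A transcript that begins with CTTT was annotated for 14 of these 32 genes, or 43.8%.

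Of 30 protein-coding hosts with other functions, 3 rose, 26 fell and 1 did not pass, with a median of -1.19, near the median and the 80.7% called lower over all genes. GNL3, a nucleolar GTPase, had 20.56 and 20.06 TPM in JMC45, against 180.30 and 167.74 TPM in vehicle (log2 change -3.04). The ribosome assembly factor WDR43 (-2.88), the chromatin remodeller CHD8 (-2.64) and the splicing factor SF3B3 (-2.60) followed. The RNA helicase DDX39B (0.33), the import receptor TNPO2 (0.28) and the ATP synthase subunit ATP5F1B (0.21) rose on TPM but were at -0.13, -0.17 and -0.25 at an equal mitochondrial total. The TNPO2 call was lost without JMC45 replicate 2 or without vehicle replicate 2 (0.22 in both cases), and that of ATP5F1B without JMC45 replicate 1 (0.20), without JMC45 replicate 2 (0.23) or without vehicle replicate 1 (0.18). After median-of-ratios scaling 11 of the 30 were called higher and 11 lower, near the 35.5% and 35.3% of all genes. CTTT starts were annotated for 4 of the 30.

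The proteins that bind snoRNAs were lower on TPM, as were 80.7% of all genes. All 4 box C/D proteins fell: NOP56 (-1.96), NOP58 (-1.86), the methyltransferase FBL (-0.68) and SNU13 (-0.45). All 4 box H/ACA proteins fell too: GAR1 (-2.60), the pseudouridine synthase DKC1 (-1.10), NOP10 (-0.86) and NHP2 (-0.21). FBL measured 312.78 and 309.80 TPM in JMC45, against 472.62 and 530.77 TPM in vehicle. After median-of-ratios scaling NOP56, NOP58 and GAR1 kept their calls as lower, whereas FBL (0.68), SNU13 (0.90), NOP10 (0.50) and NHP2 (1.15) were called higher and DKC1 was at 0.25 without a call, where 35.5% of all genes were higher and 35.3% lower. The call of NHP2 was lost without JMC45 replicate 1 (-0.22), without JMC45 replicate 2 (-0.19) or without vehicle replicate 2 (-0.15).

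All 11 snoRNP assembly factors fell on TPM, with a median of -1.42 beside -1.10 over all genes, of which 80.7% fell. They were led by the platform protein NUFIP1 (-2.58), its partner ZNHIT3 (-1.96), the H/ACA assembly factor NAF1 (-1.89) and NOPCHAP1 (-1.78). After median-of-ratios scaling 6 were called lower and 3 higher, beside 35.3% and 35.5% of all genes. Of 10 nonsense-mediated decay factors, 9 fell and 1 did not pass, with a median of -0.93, near the values of all genes. The subunits SMG9 (-3.03) and SMG8 (-2.25) of the SMG1 kinase complex led the falls, followed by UPF2 (-2.13) and the kinase SMG1 (-1.16). SMG9 had 2.07 and 1.71 TPM in JMC45, against 25.70 and 19.70 TPM in vehicle. After median-of-ratios scaling 3 of the 10 were called lower and 6 higher, so the direction of that list, like that of the median gene, depends on the scaling.

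**Figure D5:**
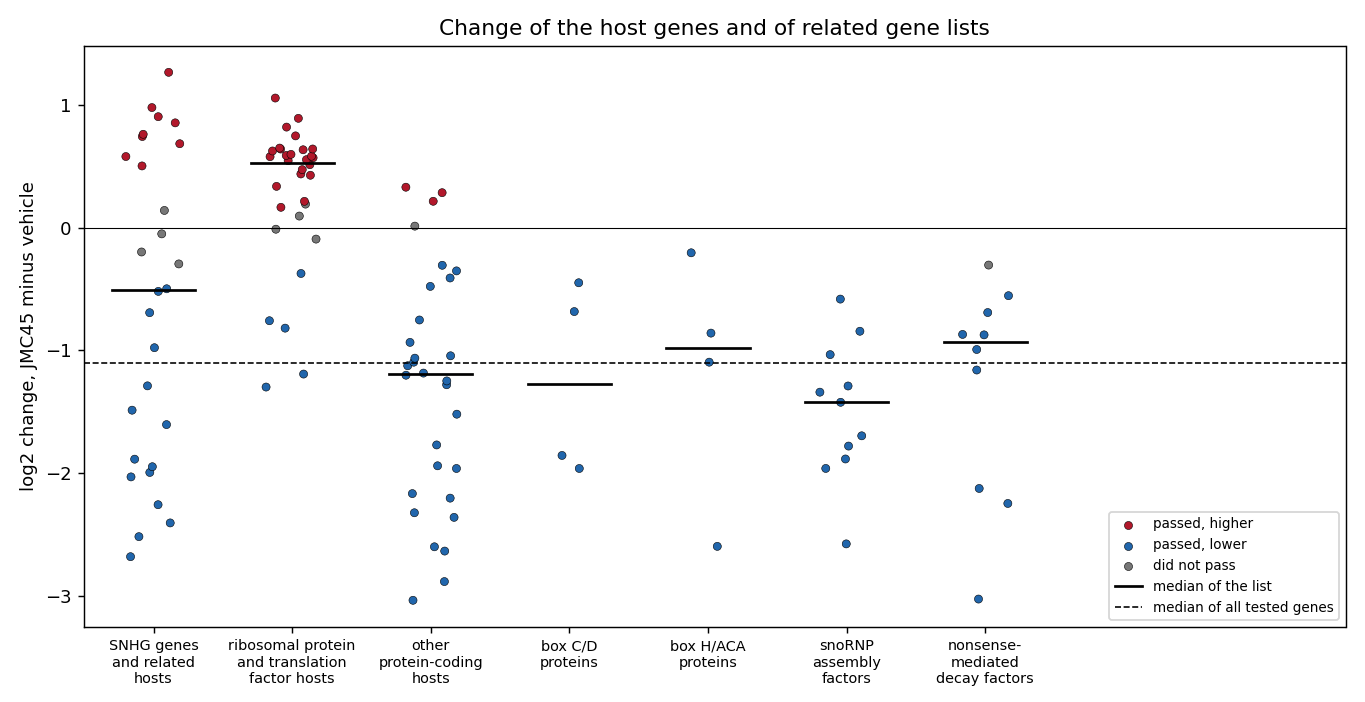
Log2 change of JMC45 minus vehicle for each gene of the noncoding and protein-coding host lists, the snoRNA-binding proteins, the assembly factors and the nonsense-mediated decay factors, with 1 point per gene coloured by the test. Solid bars are list medians, such as 0.53 for the translation hosts and -0.51 for the SNHG genes and related hosts, and the dashed line is the median of all tested genes at -1.10.

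The luminal prostate markers were present in these 22Rv1 libraries: KRT8 had 160.33 and 165.44 TPM in JMC45, against 198.19 and 208.20 TPM in vehicle, and KRT18 had 45.04 and 42.43 TPM in JMC45, against 206.34 and 221.27 TPM in vehicle. HOXB13 had 10.75 and 9.89 TPM in JMC45, against 94.95 and 96.56 TPM in vehicle, and SPDEF had 3.45 and 2.84 TPM in JMC45, against 29.41 and 31.19 TPM in vehicle. KLK3 had 14.21 and 11.47 TPM in JMC45, against 10.09 TPM in both vehicle libraries. Of the 5 luminal markers, 4 thus had both JMC45 values below both vehicle values, as did 85.7% of all tested genes. KLK3 had both above, as did 6.28% of all tested genes. The leukocyte marker PTPRC and the endothelial marker PECAM1 did not exceed 0.02 TPM, and the fibroblast gene COL1A1 lay between 1.12 and 2.45 TPM.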

How the data were processed

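The deposited table holds TPM values for each Ensembl gene in 2 JMC45 and 2 vehicle libraries, per the file headers; 50 further lines held no values. The control columns were taken as the vehicle libraries by name and number, and the design's D45 as JMC45. RNA was poly(A)-selected for a stranded kit, per the labels' protocols. fastp, HISAT2 and StringTie are the tools in the submitters' processing notes, which give no versions. Neither genome build nor annotation is given in the sources used here. TPM keeps no depth, so no counting intervals are given.

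Symbols were matched for 62666 identifiers. The 14018 genes with a mean of at least 1 TPM were tested as log2(TPM + 1) with limma 3.58.1 (R 4.3.3; two-sided test, intensity trend, no replicate block) and adjusted by the Benjamini-Hochberg method over all of them; this scale understates the change of low genes. limma was tested on simulated data. Tables were made with pandas 2.3.3 and numpy 2.4.6, and figures with matplotlib 3.10.9, in Python 3.11.15. Transcript starts, gene structure and small RNA genes came from GENCODE release 29, and promoters from RefSeq. Named in full were the 10 hosts with the highest mean TPM, every host called higher and the 6 with the most negative change, and in each related list up to 4 genes per direction with the largest change past the threshold. The members, lists and tests were chosen with earlier results of these data known; the motifs, the sequences shown, the small RNA classes, the overlapping genes and the division by abundance were chosen after the values were seen. NOP56 and DKC1 stand in 2 lists. A few genes that these rules named are not reported here.

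Alternatives were a pseudocount of 0.1, no filter, a mean of at least 5 TPM, median-of-ratios scaling, quantile normalization, TPM without the 37 mitochondrially encoded genes, with their total held equal, or without them and 88 ribosomal protein genes, no trend, a block for the replicate number, and leaving out each library.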

Additional observations from a re-analysis of the deposited data

How the results depend on the processing

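Of the 9 hosts called higher and 15 called lower, the counts were within 1.5 times of these under a pseudocount of 0.1, both filters, either fit without mitochondrially encoded genes, no trend and the replicate block. The same replicate numbers did not pair the libraries (correlation of deviations -0.047), and the replicate block left 9 higher and 15 lower. Hosts called higher numbered 17 after median-of-ratios scaling, 16 by quantile normalization and 4 at an equal mitochondrial total; hosts called lower numbered 9 after median-of-ratios scaling. Without each library in turn, 8 to 9 were called higher and 14 to 15 lower, and the ratio of the summed TPM was 1.44 to 1.53. With JMC45 or vehicle reduced to 1 library, that library is assumed to vary like the other group. The SNHG25 call was also lost without a filter (adjusted p = 0.157) and without the trend (0.0723).

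Of the genes in the related lists, 26 were called higher and 57 lower. The higher count was 54 by median-of-ratios scaling, 17 by quantile normalization, 2 at an equal mitochondrial total and 8 without mitochondrially encoded and ribosomal protein genes, and the lower count was 22 after median-of-ratios scaling; without each library they were 21 to 23 and 56 to 57.

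The reversals of sign below cover the hosts, the tested small RNAs and the related genes named by the stated rule. They are given for values called in at least 1 of the 2 fits compared. Other genes of the related lists also changed sign after median-of-ratios scaling, such as RACK1 (0.99), and are not listed. The cause was not tested beyond the shift of the median gene. Median-of-ratios scaling gave DANCR 1.15, SNHG1 0.05, SNHG9 1.27, SNHG14 0.33, EPB41L4A-AS1 0.79, SNHG10 0.96, SNHG20 0.52, SNHG21 0.66, EIF4A1 0.06, EIF4G1 0.16, EIF4A2 0.54, EIF4G2 0.60, FBL 0.68, SNU13 0.90, DKC1 0.25, NOP10 0.50, NHP2 1.15 and SMG1 0.03. Quantile normalization gave DANCR 0.37, SNHG9 0.96, SNHG14 0.14, EPB41L4A-AS1 0.72, SNHG10 1.02, SNHG20 0.66, SNHG21 0.84, ATP5F1B -0.10, SNU13 0.04, NHP2 0.14, SMG1 0.20 and SNORA71B 0.07. Without mitochondrially encoded and ribosomal protein genes, DANCR was at 0.29, SNHG9 at 0.44, SNU13 at 0.04 and NHP2 at 0.29. At an equal mitochondrial total, DDX39B was at -0.13, TNPO2 at -0.17 and ATP5F1B at -0.25. Among hosts with no call in either fit, SNHG9 was at 0.09 without mitochondrially encoded genes, SNHG10 at 0.17 without those and ribosomal protein genes, and SNHG22 at -0.26 at an equal mitochondrial total, -0.11 without JMC45 replicate 2 and -0.18 without vehicle replicate 2.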
